A study of Rattus norvegicus with 12 samples.

Results

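The Cyp2c genes of the rat encode microsomal cytochrome P450 enzymes that oxidise drugs, steroids and fatty acids. The 8 genes described here, Cyp2c11, Cyp2c13, Cyp2c12, Cyp2c7, Cyp2c6v1, Cyp2c22, Cyp2c23 and Cyp2c24, were chosen by gene symbol. All 8 are among the 18703 genes listed for liver, and 6 are among the 21568 listed for jejunum, where Cyp2c12 and Cyp2c13 have no entry in the table used. Poly(A) RNA was sequenced from liver and jejunum of Wistar Han rats in 4 groups of 3 libraries, 12 in all. For 2 weeks the animals were gavaged at 5 mL/kg with saline (the group the labels call wild type) or with a mixture of drugs. It held 20 g/L of each of the antibacterials ampicillin, metronidazole and neomycin sulfate, 10 g/L of vancomycin, and 0.2 g/L of amphotericin B, which acts on fungi. The labels do not give the sex or age of the rats, nor say whether the libraries of a group came from separate animals, so the p-values measure only the spread between these libraries. The title of the series asks how depletion of the microbiota changes host genes that process drugs.

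P450 enzymes of this family sit in the endoplasmic reticulum and receive electrons from P450 oxidoreductase (Por) and cytochrome b5. In rat liver several of them depend on sex: Cyp2c11 and Cyp2c13 are the male forms, Cyp2c12 is the female form, and Cyp2c7 is more abundant in females. The pulsatile male pattern of growth hormone, acting through its receptor (Ghr), Jak2 and Stat5b, is known to sustain Cyp2c11, and the more continuous female pattern sustains Cyp2c12. Cyp2c6 is found in both sexes and responds to phenobarbital, while Cyp2c23 is known as an arachidonic acid epoxygenase. Because labels leave the sex open, transcripts of the Y chromosome were read first: Eif2s3y had normalized counts of 548.9 to 852.2 in the saline livers, 366.9 to 483.4 in the antibiotics livers and 455.9 to 582.6 in all jejunal libraries, and Kdm5d was above 156 in each of the 12 libraries.

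In liver, of the 4 sex-dependent members, the male form Cyp2c11 and the female form Cyp2c12 passed the test, in opposite directions. Cyp2c11 fell 11.2-fold and Cyp2c12 rose 5.25-fold by the fitted change, so that Cyp2c12 exceeded Cyp2c11 per length in all 3 antibiotics libraries and in 0 of 3 saline libraries. Cyp2c23 fell to 0.516 of its saline level. In all, 3 of the 8 members passed limma's test at an adjusted p of 0.05, against 12.8% of the 16540 liver genes tested. The 2 members that fell stand beside 4.89% of all genes called lower, and the 1 that rose beside 7.93% called higher. Groups did not overlap for 5 members (Cyp2c11, Cyp2c12, Cyp2c22, Cyp2c23 and Cyp2c24), as for 37.8% of all liver genes (18.1% lower and 19.7% higher with antibiotics); of the 5, 3 were lower and 2 higher. Of the 5, Cyp2c23 and Cyp2c24 were separate only after normalization. Recovered reads of Cyp2c23 were 15642, 24024 and 20945 in saline and 10553, 11143 and 21775 with antibiotics. Those of Cyp2c24 were 3, 3 and 5 in saline and 0, 0 and 3 with antibiotics. The median log2 fold change was -0.77 over the 8 members and -0.01 over all liver genes. With genes averaging under 10 left out, Cyp2c24 among them, it was -0.59 over 7 members.

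Cyp2c11, the main male P450 of rat liver, which hydroxylates testosterone and many drugs (ENSRNOG00000052810, chromosome 1, 257970345 to 258004434, plus strand), had normalized counts of 12467, 5415 and 6716 in saline libraries 1, 2 and 3, and of 782.6, 335.9 and 1236 with antibiotics. The lowest saline library was above the highest antibiotics library by a wide margin, and within each group the highest library exceeded the lowest 2.30-fold and 3.68-fold. The change was -3.48 on the log2 scale (SE 0.51, 95% interval -4.67 to -2.29, limma adjusted p = 0.0116). It was called in 15 of 16 alternative fits. Without saline library 3 it was -3.58 and missed the threshold (adjusted p = 0.0616).

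Cyp2c13, the other male form (ENSRNOG00000049464, chromosome 1, 258796622 to 258877045, minus strand), was at 34707, 27721 and 20154 in saline and at 20334, 8530 and 9225 with antibiotics. The groups overlapped only where antibiotics library 1 met saline library 3. Its log2 change of -1.20 (SE 0.36, 95% interval -2.0 to -0.40) lay just outside the threshold (limma adjusted p = 0.0534). It passed in 3 of 16 alternative fits, among them DESeq2 (adjusted p = 0.0163) and limma without antibiotics library 1 (-1.60, adjusted p = 0.0386). That library is the one that met the saline range. The limma adjusted p was 0.152 without saline library 1 and 0.112 without saline library 3. It was 0.172 without antibiotics library 2 and 0.168 without antibiotics library 3.

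Cyp2c12, the female form, which hydroxylates steroid sulphates (ENSRNOG00000047945, chromosome 1, 258709721 to 258766881, minus strand), was at 508.3, 520.9 and 295.6 in saline and rose to 1155, 3835 and 2573 with antibiotics. Every antibiotics library was above every saline library, with antibiotics library 1 the lowest of its group. The log2 change was 2.39 (SE 0.44, 95% interval 1.37 to 3.42, limma adjusted p = 0.0188). The call ended without saline library 1 (2.52, adjusted p = 0.0540), saline library 3 (2.13, 0.0809) or antibiotics library 3 (2.30, 0.0774).

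Cyp2c7, the female-predominant form, which also acts on retinoic acid (ENSRNOG00000021405, chromosome 1, 148053687 to 148119857, minus strand), was at 17404, 14982 and 10345 in saline and at 51835, 41736 and 15163 with antibiotics. Antibiotics libraries 1 and 2 were far above saline, whereas library 3 lay inside the saline range. The log2 change was 1.20 (SE 0.45, 95% interval 0.19 to 2.21, limma adjusted p = 0.105). It passed in 3 of 16 alternative fits, among them DESeq2 (1.35, adjusted p = 0.00820) and limma without antibiotics library 3 (1.74, adjusted p = 0.0339). With any other library left out, the limma adjusted p was 0.144 to 0.283.

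**Figure D1:**
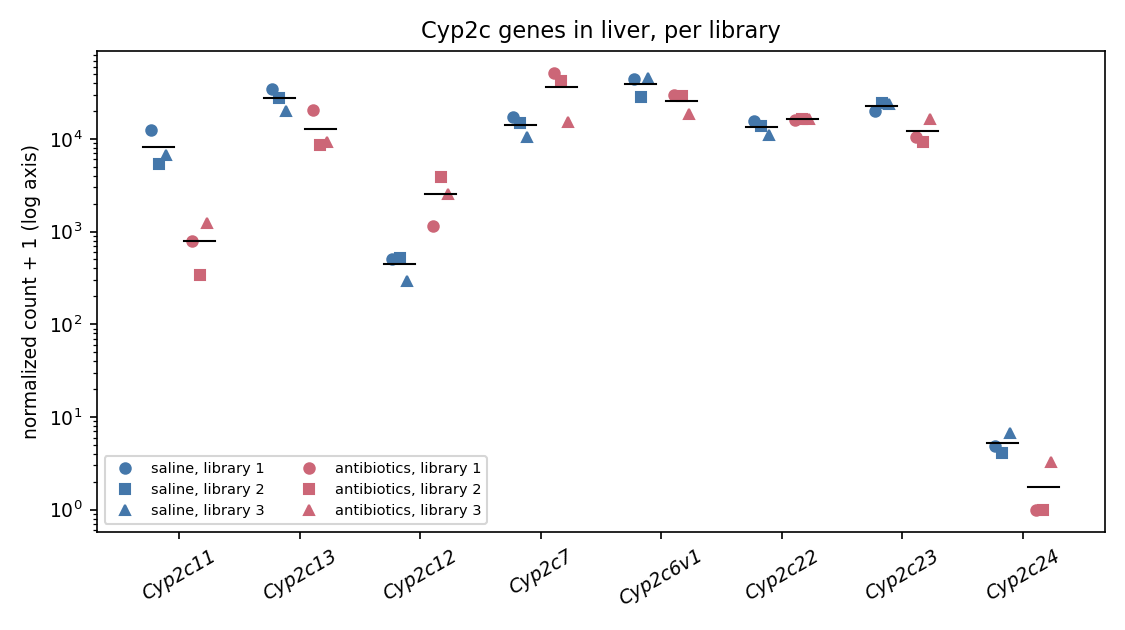
Normalized count plus 1 of the 8 Cyp2c genes in each liver library, on a log axis. Blue symbols are saline and red symbols antibiotics libraries, the marker shape gives the library number and bars are group means; Cyp2c11 runs from 5415 to 12467 in saline and from 335.9 to 1236 with antibiotics, while Cyp2c12 moves the other way.

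The sequences before the starts of these sex-dependent genes are shown because values of opposite direction were measured for members that lie close together, Cyp2c12, which rose, and Cyp2c13, which did not pass the test. By the files' coordinates, whose genome build is not given in the sources used here, Cyp2c12 and Cyp2c13 lie side by side on the minus strand of chromosome 1 with 29740 bases between them. RefSeq promoters on the build GRCr8, from 250 bases before to 50 bases after the annotated start, matched 7 of the 8 members by symbol, all but Cyp2c6v1. Those of Cyp2c11 (chr1:246174966-246175265, plus strand), Cyp2c13 (chr1:248787139-248787438, minus strand), Cyp2c12 (chr1:248676985-248677284, minus strand) and Cyp2c7 (chr1:247966144-247966443, plus strand) follow, with capitals at matches to the 6 motifs named below. The entry matched by symbol for Cyp2c7 is on the plus strand between those of Cyp2c24 and Cyp2c12, whereas the files place Cyp2c7 on the minus strand next to Cyp2c6v1, far from both, so it was not established that the Cyp2c7 promoter belongs to the gene counted.
Cyp2c11: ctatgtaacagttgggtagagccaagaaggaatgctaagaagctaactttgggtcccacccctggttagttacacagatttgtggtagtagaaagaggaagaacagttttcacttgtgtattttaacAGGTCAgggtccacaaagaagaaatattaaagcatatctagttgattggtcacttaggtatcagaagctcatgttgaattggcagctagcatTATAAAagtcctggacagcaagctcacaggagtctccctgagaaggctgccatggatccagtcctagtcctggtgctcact
Cyp2c13: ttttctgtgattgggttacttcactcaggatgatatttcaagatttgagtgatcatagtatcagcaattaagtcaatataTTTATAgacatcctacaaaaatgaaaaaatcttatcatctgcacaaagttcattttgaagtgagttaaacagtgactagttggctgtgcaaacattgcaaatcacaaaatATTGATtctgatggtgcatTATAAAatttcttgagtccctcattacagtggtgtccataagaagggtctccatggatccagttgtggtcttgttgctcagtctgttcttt
Cyp2c12: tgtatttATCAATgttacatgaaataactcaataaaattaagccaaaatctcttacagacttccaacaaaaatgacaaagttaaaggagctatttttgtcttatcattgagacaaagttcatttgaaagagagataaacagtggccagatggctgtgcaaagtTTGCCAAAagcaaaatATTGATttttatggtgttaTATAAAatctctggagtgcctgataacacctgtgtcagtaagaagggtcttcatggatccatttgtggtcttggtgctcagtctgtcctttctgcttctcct
Cyp2c7: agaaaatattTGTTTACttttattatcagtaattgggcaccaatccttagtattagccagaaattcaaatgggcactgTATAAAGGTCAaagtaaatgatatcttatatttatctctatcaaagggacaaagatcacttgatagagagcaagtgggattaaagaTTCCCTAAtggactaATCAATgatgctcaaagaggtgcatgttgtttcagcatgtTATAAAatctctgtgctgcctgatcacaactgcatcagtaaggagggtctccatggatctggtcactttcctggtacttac
Among the 21 pairs of members, Cyp2c12 and Cyp2c13 had the most similar promoters, with 67.5% identical columns in a global alignment, followed by Cyp2c11 and Cyp2c24 with 65.6%, and the least similar pair was Cyp2c7 and Cyp2c23 with 45.1%. Motifs were searched on both strands. The HNF6 motif ATCAAT was in 3 of 7 member promoters and in 8.06% of all 33469 promoters, at position -71 from the start in both Cyp2c7 and Cyp2c12, again at -243 in Cyp2c12, and at -60 in Cyp2c13. TATAAA was in 6 of 7 members (14.2% of all promoters), at -31 in Cyp2c11 and Cyp2c7, at -52 in Cyp2c12 and at -41 in Cyp2c13, with a further match in Cyp2c7 and in Cyp2c13. The nuclear receptor hexamer AGGTCA was in 3 of 7 members (16.2% of all), at -123 in Cyp2c11 and -167 in Cyp2c7, where it shares 1 base with a TATAAA match. The HNF3 motif TGTTTAC was in 3 of 7 (3.78% of all), and the C/EBP motif TTNNGNAA in 4 of 7 (41.3% of all). The STAT5 motif TTCNNNGAA was in 0 of 7 of these windows and in 8.87% of all promoters.

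Cyp2c23, the arachidonic acid epoxygenase (ENSRNOG00000013291, chromosome 1, 263778516 to 263803150, minus strand), was at 19925, 24539 and 23903 in saline and fell to 10507, 9335 and 16336 with antibiotics. The groups did not overlap, and the change was -0.96 on the log2 scale (SE 0.26, 95% interval -1.54 to -0.37, limma adjusted p = 0.0425). The call ended with edgeR (-0.91, adjusted p = 0.0540), with libraries scaled by their totals (-0.80, 0.112), with a correction for gene length (-0.87, 0.0593) and without saline library 1 (-1.05, 0.0561), saline library 3 (-0.92, 0.151), antibiotics library 1 (-0.88, 0.121) or antibiotics library 2 (-0.79, 0.161).

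Cyp2c6v1, the phenobarbital-responsive form (ENSRNOG00000024016, chromosome 1, 147713892 to 147888007, plus strand), was at 43769, 28469 and 44896 in saline and at 29906, 29088 and 18690 with antibiotics. Saline library 2 lay within the antibiotics range, and the change was -0.59 (95% interval -1.24 to 0.05, limma adjusted p = 0.187). Cyp2c22 (ENSRNOG00000021924, chromosome 1, 259257657 to 259287684, minus strand) was at 15425, 13659 and 11055 in saline and at 15914, 16579 and 16301 with antibiotics. Its antibiotics libraries differed from each other by a coefficient of variation of 2.05%, and all 3 lay above the saline libraries. The difference of 0.29 did not pass (95% interval -0.20 to 0.79, limma adjusted p = 0.394), an interval that leaves room for a rise of up to 1.73-fold.

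Cyp2c24 (ENSRNOG00000013241, chromosome 1, 258074860 to 258139176, plus strand) was close to the limit of detection in liver, with 3, 3 and 5 recovered reads in saline and 0, 0 and 3 with antibiotics. All but 1 of these libraries are at or under the floor, set at 3 reads in a library and reflecting counting error alone, so no fold is given (limma adjusted p = 0.120).

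**Figure D2:**
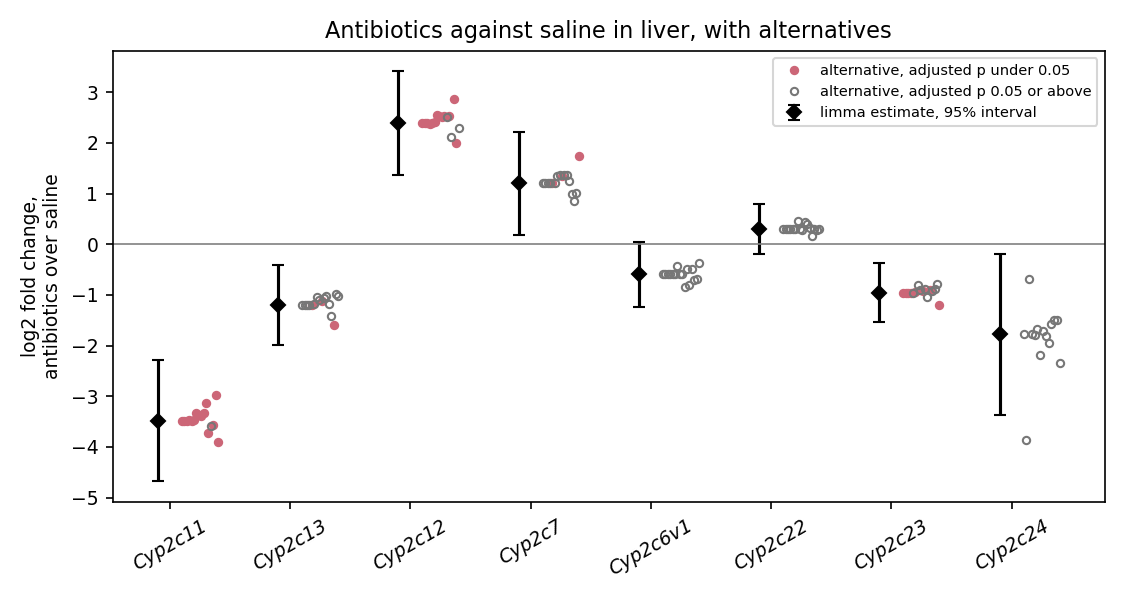
Log2 fold change in liver, antibiotics over saline, of each Cyp2c gene. Diamonds with bars are the limma estimate with its 95% interval, and the small points are up to 16 alternative fits, filled where the adjusted p was under 0.05. Every gene keeps its direction in all of them, also those never called. Cyp2c11 runs from -3.90 to -2.96, Cyp2c12 from 2.01 to 2.87 and Cyp2c22, never called, from 0.16 to 0.45.

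The authors' deposited table gives an adjusted p under 0.05 to 5 of the 8 members in liver, against 3079 of all 18703 genes listed there. These 5 in the authors' deposited table are Cyp2c11 (log2 fold change -3.38, adjusted p = 2.73e-11), Cyp2c12 (2.51, 1.32e-07), Cyp2c23 (-0.92, 0.00595), Cyp2c7 (1.35, 0.00849) and Cyp2c13 (-1.12, 0.0169). The DESeq2 fit to recovered reads called 5 of the 7 members to which it gave an adjusted p (all but Cyp2c24), against 23.5% of the 13309 genes with one, and edgeR called 2 of 8, Cyp2c11 and Cyp2c12, against 11.9%. Members of this family share sequence, and the tool that assigned reads to genes is not given in the sources used here, so reads may be split between near-identical copies.

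Levels of different genes were compared per length, as the authors' FPKM, their normalized count divided by gene length and scaled by 1 constant per library. The order and the shares below therefore depend on annotated length, 4705 bases for Cyp2c6v1 and 1646 to 1989 for the other members. By mean normalized count Cyp2c6v1 was the highest member in saline livers (39045, against 27527 for Cyp2c13). In saline livers the order by mean FPKM was Cyp2c13 (990.4 ± 262, SD, n = 3), Cyp2c23 (743.7 ± 81.6), Cyp2c7 (543.3 ± 137), Cyp2c6v1 (521.1 ± 123), Cyp2c22 (491.5 ± 80.6), Cyp2c11 (302.6 ± 139), Cyp2c12 (16.1 ± 4.60) and Cyp2c24 (0.133 ± 0.0430). The ranges of libraries overlapped between each pair of neighbours from Cyp2c13 down to Cyp2c11, and were separate between Cyp2c11 and Cyp2c12 and between Cyp2c12 and Cyp2c24. With antibiotics the order was Cyp2c7 (1382 ± 722), Cyp2c22 (597.3 ± 13.4), Cyp2c13 (456.4 ± 237), Cyp2c23 (393.3 ± 122), Cyp2c6v1 (345.4 ± 83.6), Cyp2c12 (91.7 ± 48.9), Cyp2c11 (28.9 ± 16.6) and Cyp2c24 (0.0237 ± 0.0410). There the ranges were separate only between Cyp2c6v1 and Cyp2c12 and between Cyp2c11 and Cyp2c24.

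The total of the family overlapped between the groups while the shares of several members did not. The summed FPKM of the 8 genes was 4192, 3469 and 3165 in saline libraries 1 to 3 and 4098, 3359 and 2428 with antibiotics. Cyp2c7 made up 15.8%, 16.5% and 12.5% of that sum in saline and 48.2%, 47.5% and 23.8% with antibiotics. Cyp2c13 went from 29.8%, 28.7% and 22.9% to 17.8%, 9.15% and 13.7%, and Cyp2c11 from 11%, 5.76% and 7.84% to 0.703%, 0.370% and 1.88%. For each of these genes, and for Cyp2c12, the shares of the groups were separate. Beside this, the normalized counts of the groups did not overlap for 37.8% of all liver genes tested, a measure other than shares. The shares of Cyp2c23, Cyp2c6v1, Cyp2c22 and Cyp2c24 overlapped. Shares of a sum are not independent of each other, and the normalized counts of Cyp2c7 and of Cyp2c13 did overlap. The ratio of Cyp2c12 to Cyp2c11 in FPKM was 0.0402, 0.0948 and 0.0434 in saline and 1.45, 11.2 and 2.05 with antibiotics. This pair was picked for its opposite changes, so the ratio is a description. Antibiotics libraries differed in make-up: library 2 had the lowest Cyp2c11 and the highest Cyp2c12, and library 3 had the highest Cyp2c11 and the lowest Cyp2c7 of the group.

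**Figure D3:**
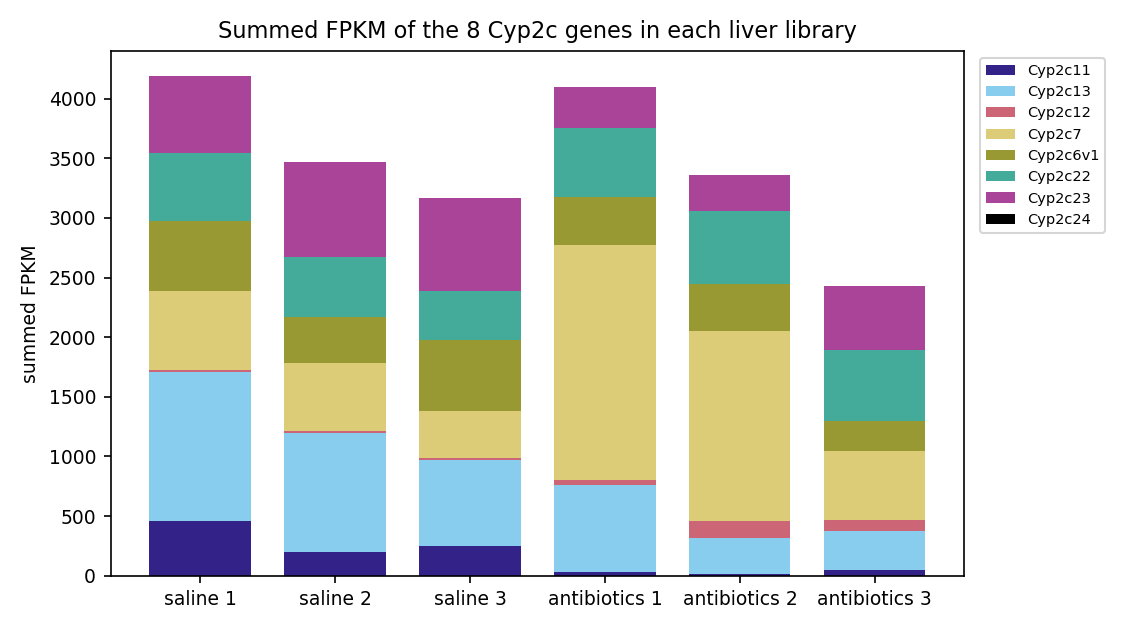
Summed FPKM of the Cyp2c genes in each liver library, with 1 stacked segment per gene. The Cyp2c7 segment is 12.5% to 16.5% of the bar in saline and 23.8% to 48.2% with antibiotics, while the total runs from 3165 to 4192 and from 2428 to 4098.

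Library measures that moved with treatment in liver were read beside these results. Genes of the mitochondrial genome took 25.0%, 6.42% and 16.0% of reads in saline libraries and 4.48%, 3.93% and 3.60% with antibiotics. With libraries scaled by their totals, which include these reads, Cyp2c11 and Cyp2c12 were called and Cyp2c23 was not (adjusted p = 0.112). Recovered reads were 15017775 to 16182483 per saline library and 17903583 to 19318616 per antibiotics library. Hepatocyte markers identified the tissue, with summed normalized counts over the 7 markers listed in liver of 1817149 to 2020338 in saline and 1605533 to 2619521 with antibiotics, and over 6 in jejunum of 9611 to 14095. The counts of markers called stand beside 7.93% of all liver genes called higher and 4.89% called lower. Of the hepatocyte markers in liver, 1 of 7 rose (Fgb) and 1 fell (Ttr). Of 8 pericentral hepatocyte markers 2 fell (Cyp2e1 and Rhbg; sums 38916 to 64643 in saline and 26469 to 36424 with antibiotics), and of 8 periportal markers 3 fell (Ass1, Cyp2f4 and Arg1; 104828 to 139312 and 76807 to 111264). Of 7 Kupffer cell markers 2 fell (sums 7199 to 10479 and 4478 to 5864), and of 5 red cell genes listed 3 fell (34528 to 75857 and 10312 to 23290). Of 8 stellate cell and fibroblast markers 1 rose (Reln) and of 5 adipocyte markers 1 fell (Cfd), while 0 of 6 endothelial, 0 of 5 cholangiocyte, 0 of 4 enterocyte, 0 of 7 smooth muscle and 0 of 3 sex-linked genes tested passed. None of these listed markers was at 0 in all libraries. Their part in the Cyp2c values was not tested. In bulk tissue, fewer cells of a type and less RNA per cell cannot be told apart.

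Other genes known to depend on sex in rat liver were read from a list chosen with earlier results of these data known. Of 8 male-predominant symbols 6 were listed, in 7 entries since Mup4 has a pair of them. All 7 were below 0, with a median of -1.66 against -0.01 over all liver genes. Of the 7 entries 3 passed, beside 4.89% of all liver genes called lower and 7.93% higher. The 3 that passed fell: the estrogen sulfotransferase gene Sult1e1 from 27650 ± 5972 to 9167 ± 1383 (log2 change -1.58, limma adjusted p = 0.00842), and the urinary protein genes Mup5 (-3.02) and 1 entry of Mup4 (-6.96). That Mup4 entry was at 7.97, 0 and 2.25 with antibiotics, near the floor, so the size of its change depends on the pseudocount. The other Mup4 entry did not pass (-4.47, limma adjusted p = 0.0585). Cyp3a18 was at 7958, 4505 and 3742 in saline and at 3165, 863.8 and 1557 with antibiotics, without overlap, and did not pass (-1.66, adjusted p = 0.0627). Cyp2a2 and Cyp3a2 had no entry under these symbols in either tissue, so no values are given for them. Of 6 other female-predominant genes 0 passed limma in either direction (median -0.37), edgeR called 0 and DESeq2 1, and 2 had an unadjusted p under 0.05, Cyp2a1 (-0.67) and Sult2a1 (-0.67). The steroid reductase gene Srd5a1 was at 15226 ± 3555 and 18903 ± 5655.

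Of 19 genes of growth hormone and sex steroid signalling, 4 rose and 0 fell in liver (median 0.32). Of all liver genes tested, 7.93% were called higher and 4.89% lower. Stat5b, which carries the growth hormone signal to the nucleus, rose from 135.0, 251.3 and 183.7 to 993.7, 667.7 and 533.4, without overlap (log2 change 1.94, SE 0.28, limma adjusted p = 0.00760). The related factor Stat3 rose by 1.61, the phosphatase Ptpn11 by 1.04 and the inhibitor Socs3 by 1.58. The receptor gene Ghr was at 6060 ± 829 and 5418 ± 816 (-0.16, adjusted p = 0.643). The Stat5 targets Cish and Socs2 varied widely within saline, with 16.6, 1544 and 714.4 for Cish and 56.0, 1566 and 675.6 for Socs2; with antibiotics they were at 439.1, 623.3 and 757.7 and at 454.0, 429.8 and 503.4. Saline library 1, lowest for both, had the highest Cyp2c11. With antibiotics, by contrast, the library highest for both (757.7 and 503.4) also had the highest Cyp2c11 of its group (1236). A link between these targets and Cyp2c11 was not tested.

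Of 24 receptors and transcription factors that act on P450 genes, 4 rose and 2 fell (median 0.29). These counts stand beside 7.93% of all liver genes called higher and 4.89% called lower. Nr1i2, the drug-sensing receptor PXR, fell from 2371 ± 492 to 1231 ± 223 (log2 change -0.94, limma adjusted p = 0.0290), and Foxa2, also called HNF3 beta, was the other to fall (-1.01). Ppara, Hlf, Onecut2 and Rxra rose, by 1.96, 1.47, 1.73 and 2.93 on the log2 scale. Nr1i3, the receptor CAR, was at 423.2 ± 239 and 223.3 ± 39.1 (-0.73, adjusted p = 0.315), and Hnf4a at 5759 ± 720 and 7597 ± 1143 (0.40, adjusted p = 0.238). Of 17 genes of electron transfer and haem synthesis, 2 rose and 3 fell (median -0.20), beside the same shares of all liver genes. The haem oxygenase gene Hmox1 rose by 1.24 and the cytochrome b5 gene Cyb5b by 0.64, while Cyb5r3 (-0.84), the haem synthesis gene Urod (-0.68) and Pgrmc1, a haem-binding partner of P450 enzymes (-0.79), fell. Por itself was at 2241 ± 897 and 2406 ± 289 (0.19, adjusted p = 0.710).

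Cyp2c23 makes epoxides of arachidonic acid, so other enzymes of these lipids were set beside it. Of 19 listed, 3 fell and 0 rose in liver (median -0.56), beside 4.89% of all liver genes called lower and 7.93% higher. All 3 are P450 genes, Cyp2j4 (591.7 ± 172 to 236.0 ± 70.9, log2 change -1.33), Cyp4f1 (10901 ± 334 to 5726 ± 1079, -0.94) and Cyp4f6 (1735 ± 242 to 999.9 ± 142, -0.79).

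**Figure D4:**
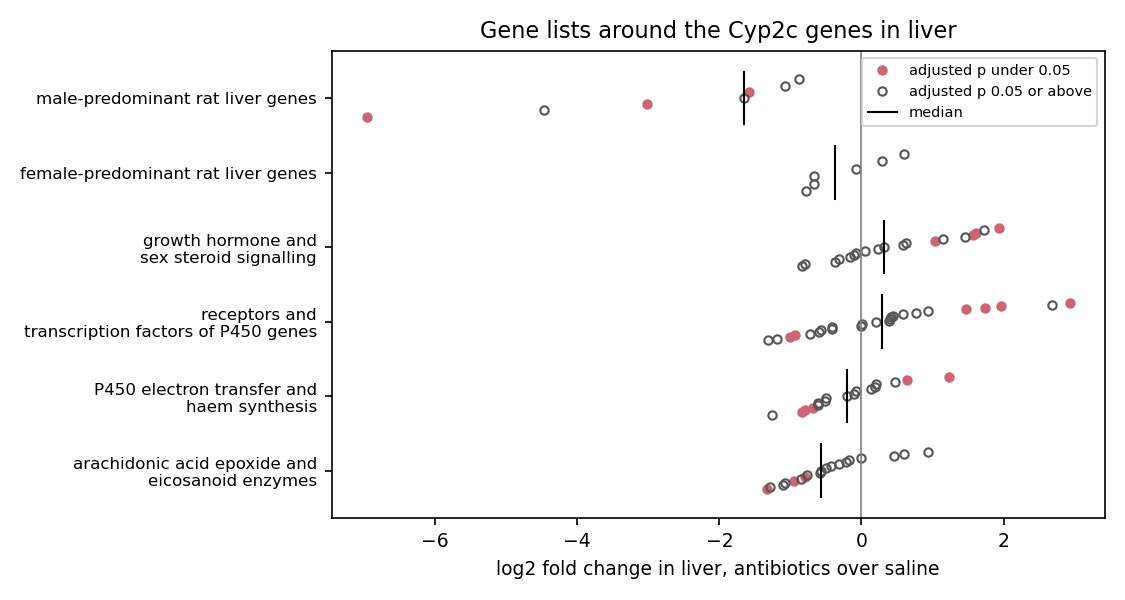
Log2 fold change in liver of each measured gene of the 6 lists, antibiotics over saline, with filled points where the limma adjusted p was under 0.05 and a bar at the list's median. All 7 male-predominant entries lie below 0, and 4 of 19 growth hormone and sex steroid genes are filled, all above 0. Of all liver genes tested, 7.93% were called higher and 4.89% lower.

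The genes with the most similar profile to each called member were ranked among 8839 other liver genes with a mean of at least 50, by the root mean square difference of log2 values centred over the 6 liver libraries. For Cyp2c11, whose own values spread by 1.86 around their mean, the nearest were Cyp3a23/3a1 (0.38), Mup5 (0.54) and Hbb-bs (0.67). For Cyp2c12 (own spread 1.33) they were Rhou (0.30), Kif12 (0.31) and Hnrnpab (0.37). For Cyp2c23 (own spread 0.55) they were Patz1 (0.10), Rnf39 (0.13) and Cyp4f1 (0.14), the last a P450 of the lipid list above.

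In jejunum the Cyp2c genes were near the floor. All 6 listed members together had 18, 77 and 7 recovered reads in saline libraries 1, 2 and 3 and 22, 42 and 38 with antibiotics, out of 14592126 to 18322008 per library. In liver all 8 members, Cyp2c12 and Cyp2c13 included, had 102846 to 131003 reads per library. Enterocyte markers identified the tissue, with sums of 25359 to 61677 over 7 markers in jejunum and of 3176 to 5733 over 5 in liver. The tables were normalized separately, so no test was made between tissue levels.

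Cyp2c6v1 had 18, 22 and 7 reads in saline jejunum and 1, 21 and 0 with antibiotics, and Cyp2c24 had 0, 13 and 0 and then 8, 13 and 24. After normalization the Cyp2c24 groups did not overlap (0, 8.97 and 0 against 9.04, 11 and 15.1), as for 27.9% of jejunal genes tested (16.6% higher and 11.3% lower). Cyp2c22 had 39 reads in saline library 2 and 0 in the other two, and 4, 0 and 14 with antibiotics. Cyp2c23 was at 0 in all saline libraries and had 9, 3 and 0 reads with antibiotics. Cyp2c7 was seen with 5 reads in antibiotics library 2 alone, and Cyp2c11 with 3 reads in saline library 2 alone, both under the filter on mean value.

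Of the 4 members tested in jejunum, 0 passed limma, against 1.28% of 19450 genes (0.761% higher and 0.519% lower). EdgeR also called 0, against 1.07% of genes. DESeq2 gave an adjusted p to 1 of the 4, Cyp2c6v1, which did not pass (adjusted p = 0.552), and to 14892 genes in all, of which it called 12.8%. Cyp2c24 was the 1 member with an unadjusted limma p under 0.05 (adjusted p = 0.194). With 0 reads in 2 of its 3 saline libraries, its log2 change depends on the fit: it was 2.54 (SE 1.05), 1.23 with a pseudocount of 5, 4.69 with a pseudocount of 0.1, 1.70 with edgeR and 1.98 to 3.64 with 1 library left out. Adjusted p was 0.242 for Cyp2c6v1, 0.348 for Cyp2c23 and 0.919 for Cyp2c22. Saline library 3 had 80.7% of its reads in mitochondrial genes, against 26.8% to 64.8% in the other jejunal libraries, and its 1 read was worth a normalized count of 2.15. Without it 0 members passed as well. Adipocyte markers in jejunum had sums of 8502 to 52054 in saline and 3435 to 9018 with antibiotics, and smooth muscle markers 43406 to 128052 and 166774 to 184032, with 2 of 8 called higher (Kcnmb1 and Lmod1). Cyp2e1 of the pericentral list fell, and 0 genes of the other marker lists passed in jejunum. The part of these markers in the low Cyp2c values was not tested.

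**Figure D5:**
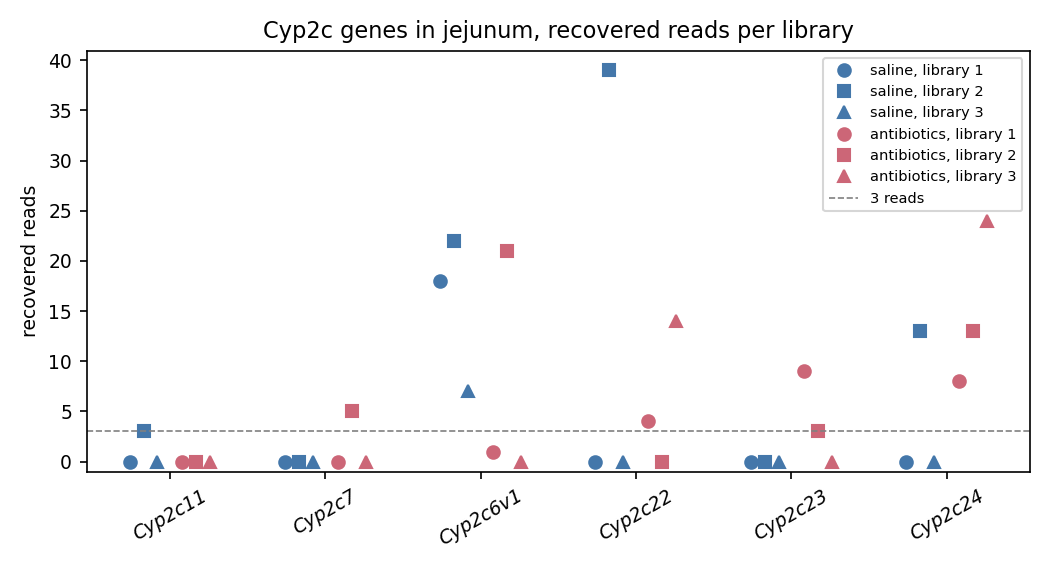
Recovered reads of the 6 Cyp2c genes listed for jejunum in each library, with a dashed line at 3 reads. The highest value is 39 reads, for Cyp2c22 in saline library 2, and all other points are at 24 reads or fewer.

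Around these genes in jejunum, 0 of 17 electron transfer and haem genes passed limma (median -0.44), as did 0 of 18 tested growth hormone and sex steroid genes (-0.20), 0 of 4 male-predominant and 0 of 4 female-predominant genes. Of 22 receptors and transcription factors 2 fell, Cebpa (2738 ± 204 to 540.5 ± 138) and Cebpb (1230 ± 281 to 482.1 ± 51.9). Of 18 lipid enzymes 1 fell, the epoxide hydrolase gene Ephx1 (474.3 ± 69.5 to 186.4 ± 22.2). Of all jejunal genes tested, 0.761% were called higher and 0.519% lower. Stat5b was at 124.4, 109.1 and 103.2 in saline and at 262.2, 251.6 and 272.7 with antibiotics, without overlap, and just missed the threshold (1.22, limma adjusted p = 0.0607).

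Whether a member responded differently in the tissues was tested with edgeR on recovered reads of both, for the 6 members with reads in both tables. The test called 0 of them, against 0.0564% of 14187 genes (8 in all), and 2 had an unadjusted p under 0.05. The number of all genes called was 85 with limma on the deposited values, 834, 95 and 4 without jejunal saline library 1, 2 or 3, 2, 4 and 2 without jejunal antibiotics library 1, 2 or 3, 0, 592 and 0 without liver saline library 1, 2 or 3, and 5, 2 and 3 without liver antibiotics library 1, 2 or 3; the members called were 0 in each. The 2 members were Cyp2c23 (adjusted p = 0.143) and Cyp2c24 (adjusted p = 0.224), both with the lower change in liver. Cyp2c23 had 0 reads in all jejunal saline libraries, so the size of its difference depends on the fit and is not a bound: it was -5.73 on the log2 scale with edgeR and -2.72 with limma. That of Cyp2c24 was -3.94, and -8.63 without jejunal saline library 2. The jejunal side of these tests rests on 0 to 39 reads per gene and library.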

How the data were processed

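Libraries of poly(A) RNA were read from both ends, per the labels' protocols. Tools named in the submitters' processing notes are DESeq2 1.20.0, HISAT2 2.0.5 and CASAVA 1.4. The genome build, the counting tool and its strand setting are not given in the sources used here. What the file headers call a count is a normalized signal deposited by the authors, equal to whole reads divided by a factor that is constant within a library. Multiplying back gave whole numbers for 100% of values, with a tolerance of 0.01 reads. The authors deposited FPKM as well, which is this value over gene length. Per the file headers, the log2 fold changes and p-values with adjusted p-values are the authors' own comparison.

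Within each tissue, log2(normalized count + 1) of genes averaging 1 or more was tested two-sided with limma, using a robust variance trend, with Benjamini-Hochberg adjustment over all genes; fold changes on that scale understate those of low genes. The tissue difference used edgeR's quasi-likelihood test with TMM on reads of 16531 annotated genes in both tables. R 4.3.3, limma 3.58.1, edgeR 4.0.16 and DESeq2 1.42.0 were used. On simulated data, limma recovered 16% of 100 genes changed by log2 1 and 92% of 100 changed by log2 2 in liver, and 3% and 58% in jejunum. The tissue test recovered 4% and 46%. The simulation gave all genes the same dispersion. Its changed genes had higher mean counts than any Cyp2c gene in jejunum or Cyp2c24 in liver. These percentages therefore do not apply to the members in jejunum, to their tissue test or to Cyp2c24. Recovered reads were 14592126 to 19318616 per library. No pair of libraries of a group was a duplicate: the smallest chi-square per degree of freedom was 39.9.

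The members and the 6 gene lists and 12 marker lists beside them were chosen with earlier results of these data known. Of each list the called genes with the smallest p are named, up to 4 per tissue, with Por, Nr1i2, Nr1i3, Hnf4a, Ghr, Stat5b, Cyp2a2, Cyp3a2 and Cyp3a18. Other genes named (Cyb5b, Foxa2, Rxra, Cish, Socs2, Srd5a1, Cyp2a1, Sult2a1, Eif2s3y, Kdm5d, LOC100361547, LOC100361492, an unannotated P450 entry and single markers) were chosen after their values were seen. For likeness, the 3 nearest genes of each called member are named. Alternatives were other filters and pseudocounts, other scaling, edgeR, DESeq2, a correction for gene length, replicate number as a block and each library left out.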

Additional observations from a re-analysis of the deposited data

How the results depend on the processing

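In liver 2121 genes passed (1312 higher, 809 lower), and 74 to 4416 with 1 library left out. The count was 918, 4416 and 74 when saline library 1, 2 or 3 was dropped, and 482, 528 and 379 when antibiotics library 1, 2 or 3 was. Of the 8 Cyp2c genes 3 passed, 5 with DESeq2 and 0 to 3 with 1 library left out, 0 without saline library 3 and 1, Cyp2c11, without saline library 1. Scaling by library totals moved the median gene by 0.14 in liver and 0.51 in jejunum on the log2 scale and gave 1116 higher and 414 lower in liver and 55 higher and 4 lower in jejunum. In jejunum 249 genes passed (148 higher, 101 lower), 160 with a pseudocount of 0.1, 59 with library totals, 1905 with DESeq2, 24 with the correction for gene length and 1 to 1902 with 1 library left out. Dropping saline library 1, 2 or 3 gave 1902, 108 and 62, and dropping antibiotics library 1, 2 or 3 gave 1, 3 and 1. The number of Cyp2c genes called in jejunum (0) and of those with a tissue difference (0) did not change under any alternative run. The change of Cyp2c22 in jejunum turned from 0.32 to -0.093 with a pseudocount of 5 and to -1.12 with edgeR. With 1 library left out it ran from -0.48 (without saline library 1 or 3) to 1.92 (without saline library 2), and was -0.37 without antibiotics library 3.

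With replicate number as a block, 91 genes in place of 8 differed between tissues, 1625 genes passed in jejunum and 1779 in liver, and 4 Cyp2c genes in liver: Cyp2c11, Cyp2c12, Cyp2c13 (adjusted p = 0.0346) and Cyp2c7 (0.0391), but not Cyp2c23 (0.0621). Deviations of same-numbered libraries from their group means correlated by 0.24, 0.28 and 0.087 in jejunum and by 0.12, -0.15 and -0.19 in liver, so the numbers were not taken to pair samples; each jejunal library correlated best with its own number, a hint from the data and not from the design. The causes of these moves were not tested. Precision is limited by 3 libraries per group, and in jejunum by reads near the floor.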

Other observations

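Further Cyp2c genes, LOC100361547 and LOC100361492, were found by their descriptions after the values were seen. LOC100361547, described as like Cyp2c7 (chromosome 1, 148240504 to 148287217), had normalized counts of 4861, 1900 and 1383 in saline livers and 4554, 3026 and 2275 with antibiotics, so the groups overlapped (log2 change 0.43, limma adjusted p = 0.571). LOC100361492, described as like Cyp2c55, averaged 10.2 ± 12.4 and 21.8 ± 7.80 in liver (SD, n = 3, limma adjusted p = 0.169). In jejunum it averaged 15.2 ± 14.3 and 6.01 ± 4.88 (limma adjusted p = 0.865). An unannotated entry with a P450 domain, of no stated subfamily, lay near Cyp2c7 (chromosome 1, 148192383 to 148198306). It averaged 15.1 in saline livers and 38.4 with antibiotics (log2 change 1.28, limma adjusted p = 0.0410). Of 20 liver entries within 100000 bases of a member that are not members, 3 passed, all higher, beside 7.93% of all liver genes called higher.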
